A study of Mus musculus with 11 samples.

Results

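The genes described here are 10 genes of ion and fluid transport at the airway surface: Scnn1a, Scnn1b, Scnn1g, Cftr, Ano1, Slc26a9, Slc26a4, Slc12a2, Foxi1 and Atp12a. They were chosen by name, for what they are known to do, and each was found once by its Ensembl identifier among the 21899 genes listed in the deposited table. RNA of mouse airway was sequenced in 11 libraries from BALB/c wild-type males of 6 to 8 weeks, killed on day 25. The 3 PBS libraries came from mice that were not sensitised and received PBS alone. The 4 OVA/LPS/Vehicle libraries (labelled OL) came from mice given ovalbumin (OVA) with alum by intraperitoneal injection on days 0 and 7, OVA intranasally from day 14 to day 17, bacterial lipopolysaccharide (LPS) intranasally on days 19 and 21, and vehicle into the trachea. The 4 OVA/LPS/GGsTop libraries (labelled OLG) had the same OVA and LPS course and received GGsTop, an inhibitor of γ-glutamyl transferase, at 0.5 mg/kg into the trachea on days 21, 22 and 23. The OL libraries carry the numbers 12, 34, 56 and 78, and whether each pools animals is not stated. Nothing in the labels names the animal behind a library, so the p-values measure the spread between these libraries.

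The thin liquid layer over the airway epithelium is set by the balance of salt absorption and salt secretion. Sodium enters the cell from the lumen through the epithelial sodium channel ENaC, built from the α, β and γ subunits encoded by Scnn1a, Scnn1b and Scnn1g, and water follows. Chloride leaves through CFTR, the cyclic AMP-gated channel that is defective in cystic fibrosis, and through ANO1 (TMEM16A), a calcium-activated channel, while SLC26A9 and pendrin (SLC26A4) also carry anions across the apical membrane. NKCC1 (SLC12A2) loads chloride into the cell from the blood side, FOXI1 specifies ionocytes, the rare airway cells rich in CFTR, and ATP12A is a proton pump that acidifies the surface liquid.

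The levels are FPKM, fragments scaled by exon length and by the mapped fragments of the library. This takes out gene length and library depth, but not differences between libraries in composition or in dependence on GC content. The steps between the deposited values corresponded to 14513136 to 18632382 counted fragments per library. The labels give the tissue as trachea, whereas the study's methods describe larger airways freed of lung parenchyma with forceps and cut from the trachea. Epithelial keratins were present in the data, with Krt8 at a mean of 110.5 FPKM, and so were genes of the alveolus, with the surfactant gene Sftpc at a mean of 7150 FPKM. Genes of thyroid and parathyroid were high in 3 of the 4 OL libraries. The dependence of a gene's level on its GC content also differed, with a slope of -0.26 to -0.19 log2 units per 10 GC points in the OL libraries, 0.05 to 0.11 in the OLG libraries, 0.06 and 0.05 in PBS 1 and PBS 2, and 0.53 in PBS 3, which stood apart. These are whole-tissue libraries, in which fewer cells of a type and less RNA per cell cannot be told apart.

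The promoters of 4 members are shown because these genes moved most against the PBS libraries, Scnn1b, Scnn1g and Slc26a9 downward and Slc26a4 upward. The sequences are RefSeq promoters of build GRCm38.p6, on the strand of the gene, and capitals mark matches to the TATA box letters TATAAA on either strand, with overlapping matches joined.
Scnn1b (chr7:121864788-121865087, + strand): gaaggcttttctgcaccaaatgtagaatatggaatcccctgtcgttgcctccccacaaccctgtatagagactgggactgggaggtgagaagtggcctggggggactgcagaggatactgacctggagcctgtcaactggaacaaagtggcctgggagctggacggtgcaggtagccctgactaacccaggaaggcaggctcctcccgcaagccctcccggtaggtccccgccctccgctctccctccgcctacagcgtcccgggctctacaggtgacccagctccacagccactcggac
Scnn1g (chr7:121734229-121734528, + strand): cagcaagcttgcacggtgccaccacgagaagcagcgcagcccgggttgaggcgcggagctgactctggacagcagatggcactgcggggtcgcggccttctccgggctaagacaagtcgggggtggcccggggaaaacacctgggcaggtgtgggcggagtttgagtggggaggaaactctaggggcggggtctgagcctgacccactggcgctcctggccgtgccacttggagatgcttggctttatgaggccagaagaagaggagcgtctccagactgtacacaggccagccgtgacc
Slc26a9 (chr1:131743772-131744071, + strand): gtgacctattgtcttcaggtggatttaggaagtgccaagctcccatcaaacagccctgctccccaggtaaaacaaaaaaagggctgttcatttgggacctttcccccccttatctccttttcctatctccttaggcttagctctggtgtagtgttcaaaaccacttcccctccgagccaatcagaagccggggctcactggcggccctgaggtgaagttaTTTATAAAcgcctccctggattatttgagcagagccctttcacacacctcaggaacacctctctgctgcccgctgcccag
Slc26a4 (chr12:31559935-31560234, - strand): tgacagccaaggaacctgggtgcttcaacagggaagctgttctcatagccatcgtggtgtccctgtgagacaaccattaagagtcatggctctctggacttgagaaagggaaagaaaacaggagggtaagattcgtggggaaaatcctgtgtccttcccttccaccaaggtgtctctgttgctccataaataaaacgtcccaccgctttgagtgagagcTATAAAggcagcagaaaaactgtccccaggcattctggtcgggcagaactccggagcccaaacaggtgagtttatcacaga
Slc26a4 and Slc26a9, which moved in opposite directions, both hold TATAAA, as do 13.6% of 32851 mouse promoters of the same length, and in Slc26a9 a match on each strand overlaps the other. The 7 members with a promoter in the table, which include Cftr, Ano1 and Foxi1, hold no match to TTC and GAA with 4 bases between, the spacing bound by STAT6, which 6.95% of the promoters hold, to CACGTG, an E-box, which 7.15% hold, or to AGAACA and TGTTCT with 3 bases between, a glucocorticoid receptor palindrome, which 0.00913% hold. The motifs were chosen after the values had been seen, and both strands were searched. Promoters of Scnn1a, Atp12a and Slc12a2 are not shown. Scnn1g and Scnn1b lie on the same strand of chromosome 7, at 121734479 to 121768475 and 121865038 to 121918514 of GRCm38, 96562 bases apart. Scnn1a lies on chromosome 6 at 125320659 to 125344943, Slc26a4 on chromosome 12 at 31519827 to 31559969 and Slc26a9 on chromosome 1 at 131744022 to 131771504, by the GENCODE annotation of the same build.

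In the PBS libraries the ENaC subunits were the most abundant of the 10 genes. Scnn1a had a mean of 62.8 FPKM ± 17.997 (SD, n = 3), Scnn1g of 54.7 ± 18.7 and Scnn1b of 48.6 ± 19.4, and the ranges of these neighbours overlapped. Slc26a9 followed at 20.9 ± 6.62 FPKM, below the range of Scnn1b, and overlapped Slc12a2 at 13.8 ± 3.51, which in turn overlapped Ano1 at 11.8 ± 1.22. Cftr was low at 2.55 ± 0.165 FPKM, and its range overlapped that of Slc26a4 at 2.03 ± 1.002. The order changed in the OL libraries, where Slc12a2 stood beside Scnn1g and Slc26a4 overlapped Ano1 and Scnn1b, while Scnn1a alone lay above every other member. Scnn1a was again separate from all others in the OLG libraries, where the members from Scnn1g down to Slc26a4 each overlapped the next. Foxi1 and Atp12a were at the limit of detection in every group.

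**Figure D1:**
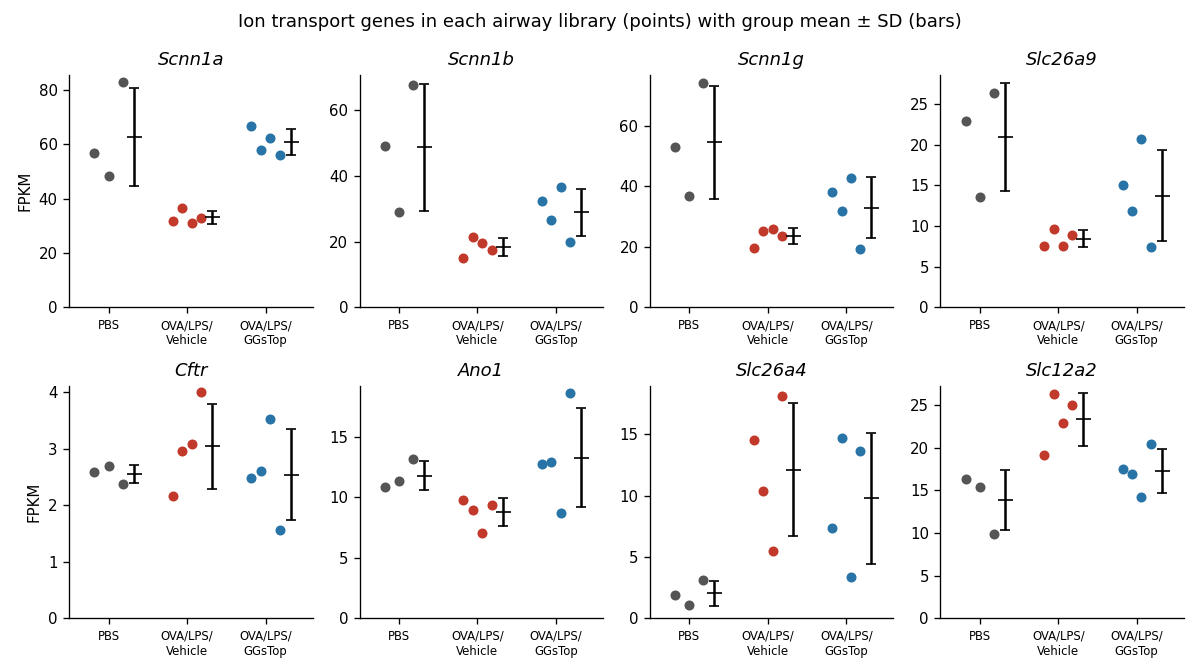
FPKM (y axis of each panel, starting at 0) of the 8 members that passed the filter in each library of the 3 groups, with the group mean and SD as bars. The 4 OVA/LPS/Vehicle points lie below all PBS points for Scnn1a, Scnn1b, Scnn1g, Slc26a9 and Ano1, and above them for Slc26a4 and Slc12a2.

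The comparison of OVA/LPS/Vehicle with PBS asks how the allergic and bacterial challenge altered these genes. All 3 ENaC subunits and Slc26a9 fell, and Slc26a4 and Slc12a2 rose, so that 6 of the 8 members tested passed an adjusted p of 0.05, against 38.0% of the 14004 genes tested. Cftr and Ano1 did not pass, and Foxi1 and Atp12a were too low to test. The median log2 change of the 8 members was -0.63, against -0.01 over all genes tested. Fold changes are differences of group means on the log2(FPKM + 1) scale, which understates the change of low genes, and the test was limma's moderated test over all 11 libraries with Benjamini-Hochberg adjustment.

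Scnn1a, the α subunit that the channel needs to conduct, was at 56.8, 48.6 and 83.0 FPKM in PBS libraries 1 to 3 and at 31.9, 36.6, 31.0 and 33.0 in OL libraries 12, 34, 56 and 78. No OL library reached the lowest PBS library, and the OL libraries lay close together. The log2 change was -0.87 (SE 0.16, adjusted p = 0.00443 by limma), and the mean ratio to PBS was 0.528. With each library's dependence on GC content removed it was -0.55, still past the threshold at an adjusted p of 0.0205, and the GC content of Scnn1a, 56.7%, was the highest of the 10 members.

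Scnn1b, the β subunit, was at 49.2, 28.9 and 67.7 FPKM in PBS and at 14.9, 21.5, 19.6 and 17.6 in OL. The groups did not overlap, and PBS 2, the lowest PBS library, was nearest to OL. Its log2 change was -1.28 (SE 0.27, adjusted p = 0.00644). Scnn1g, the γ subunit, was at 52.9, 36.9 and 74.2 FPKM in PBS and at 19.8, 25.3, 25.8 and 23.5 in OL, again without overlap. It fell by 1.13 on the log2 scale (SE 0.27, adjusted p = 0.00981). For all 3 subunits PBS 3, the library with the steep GC slope, was the highest and PBS 2 the lowest of the PBS group, and the calls held when either was left out.

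Slc26a9, an apical anion transporter that works alongside CFTR, was at 22.9, 13.6 and 26.4 FPKM in PBS and at 7.53, 9.65, 7.60 and 8.95 in OL. Every OL library lay below every PBS library. The log2 change was -1.17 (SE 0.29, adjusted p = 0.0115), and without PBS 3 it was -0.99 with an adjusted p of 0.0557, so this call rested on that library.

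Slc26a4 encodes pendrin, which exchanges chloride for bicarbonate and also carries thiocyanate and iodide. It was at 1.90, 1.10 and 3.09 FPKM in PBS and at 14.5, 10.4, 5.49 and 18.1 in OL, a ratio of means of 5.97. All OL libraries lay above all PBS libraries, with OL 56 the lowest and OL 78 the highest of the group. The log2 change was 2.06 (SE 0.46, adjusted p = 0.00822), and it lay between 1.82 and 2.36, and passed, with any of the 7 libraries left out. The values rested on 53 to 941 fragments per library.

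The thyroid also expresses Slc26a4, and thyroglobulin (Tg), which only the thyroid makes in quantity, was high in some of the OL libraries. Tg was at 90.6, 166.2 and 302.5 FPKM in OL 12, 34 and 56, at 0.256 in OL 78, at 0.305 to 0.828 in PBS and at 0.147 to 1.44 in OLG. The library with the most Slc26a4, OL 78, was the OL library with almost no Tg, and OL 56, with the most Tg, had the least Slc26a4 of the group. The 8 thyroid genes summed to 5.93 to 7.94 FPKM in PBS, 7.03 to 334.7 in OL and 5.70 to 10.1 in OLG. The 8 goblet cell genes summed to 4.55 to 40.4 FPKM in PBS, 699.1 to 1615 in OL and 93.7 to 1910 in OLG. In OL against PBS, where 38.0% of all genes tested were called, all 8 goblet cell genes rose. Their mean log2 level correlated with that of Slc26a4 at r = 0.87 over the 11 libraries, a description of libraries that share their tissue pieces and groups. The parts of thyroid tissue and of goblet cell number in the Slc26a4 change were not tested.

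Slc12a2 encodes NKCC1, the basolateral cotransporter that supplies chloride for secretion. It was at 16.3, 15.3 and 9.82 FPKM in PBS and at 19.2, 26.3, 22.9 and 24.97 in OL, without overlap. The log2 change was 0.73 (SE 0.18, adjusted p = 0.0108). It was 0.43 (adjusted p = 0.0452) after removal of the GC dependence, and 0.52 (adjusted p = 0.129) when libraries were set to equal levels of the 12 epithelial genes, so the call was lost under that scaling.

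Ano1 was at 10.9, 11.3 and 13.2 FPKM in PBS and at 9.74, 8.96, 7.06 and 9.34 in OL. The groups did not overlap, but the log2 difference of -0.39 (SE 0.20) had an adjusted p of 0.131. Cftr was at 2.599, 2.69 and 2.37 FPKM in PBS and at 2.16, 2.96, 3.09 and 3.9997 in OL, and these groups overlapped. Its log2 difference was 0.17 (SE 0.19, adjusted p = 0.486), and it was -0.29 after removal of the GC dependence, so no direction can be given for it.

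**Figure D2:**
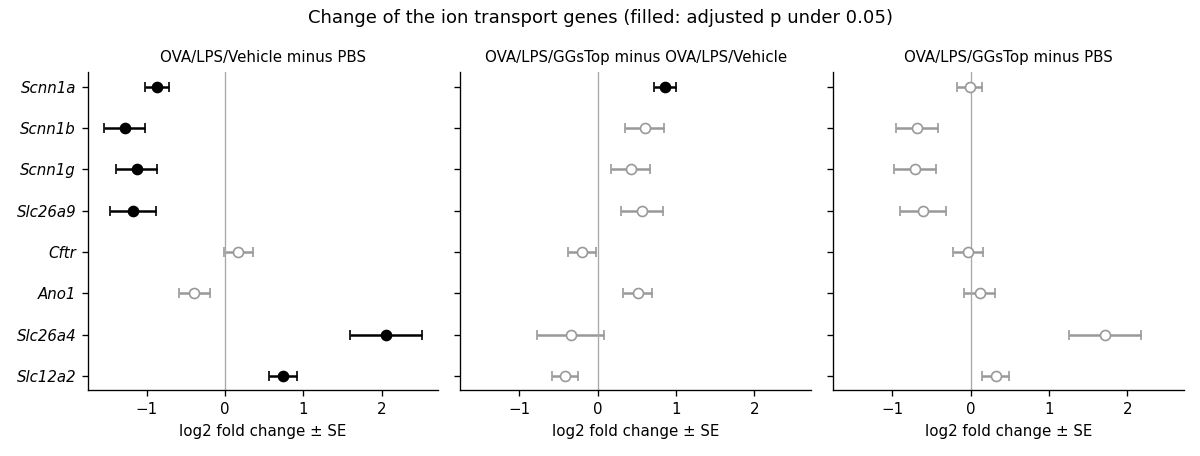
Log2 fold change (x axis, with its standard error) of the 8 members tested in the 3 comparisons, with filled points for an adjusted p under 0.05. In the left panel 6 points are filled, in the middle panel Scnn1a alone at 0.86, and in the right panel none.

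The comparison of OVA/LPS/GGsTop with OVA/LPS/Vehicle asks what GGsTop changed in challenged mice. Of the 8 members, Scnn1a rose and no other passed, 1 of 8 against 8.71% of all genes tested. This comparison shares the OL libraries with the previous one, so a low OL value enters both. Scnn1a was at 67.0, 57.9, 62.5 and 56.3 FPKM in OLG libraries 1 to 4, each above the highest OL library at 36.6. The log2 change was 0.86 (SE 0.15, adjusted p = 0.0181 by limma), and the mean of 60.9 FPKM ± 4.81 (SD, n = 4) was 1.84 times that of OL. The size of the change varied little with the libraries left out, from 0.81 to 0.91, but the adjusted p rose to 0.0709 without OL 56, 0.0714 without OLG 1 and 0.0503 without OLG 3. It was 0.60 (adjusted p = 0.0538) after removal of the GC dependence and 0.79 (adjusted p = 0.328) at equal epithelial levels.

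The β and γ subunits did not pass in this comparison. Scnn1b was at 32.5, 26.6, 36.5 and 19.9 FPKM in OLG, where OLG 4 fell inside the OL range and the other 3 libraries lay above it, with a log2 difference of 0.60 (SE 0.25, adjusted p = 0.129). Scnn1g was at 38.1, 31.7, 42.9 and 19.4 FPKM, and OLG 4 lay below every OL library, with a log2 difference of 0.42 (SE 0.25, adjusted p = 0.265). OLG 4 was also the lowest OLG library for Slc26a9, which was at 15.05, 11.8, 20.7 and 7.38 FPKM with a log2 difference of 0.57 (SE 0.27, adjusted p = 0.175). For Scnn1a the same library lay close to the other 3.

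Slc26a4 was at 7.35, 14.7, 3.38 and 13.6 FPKM in OLG, a range that overlapped OL widely, with a log2 difference of -0.35 (SE 0.43, adjusted p = 0.608). OLG 3, the lowest of the group for Slc26a4, was also the lowest for the goblet cell genes at 93.7 summed FPKM. Slc12a2 was at 17.5, 16.9, 14.2 and 20.5 FPKM, with only OLG 4 inside the OL range, and a log2 difference of -0.42 (SE 0.16, adjusted p = 0.118). Fitted without the PBS libraries, Scnn1b and Slc12a2 passed too, at adjusted p of 0.0438 and 0.0439.

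Ano1 was at 12.8, 12.9, 8.73 and 18.7 FPKM in OLG, where OLG 3 fell inside the OL range and the others lay above it, with a log2 difference of 0.51 (SE 0.18, adjusted p = 0.0923). Over the 11 libraries Ano1 correlated at r = 0.80 with the mean log2 level of the smooth muscle genes and at 0.51 with the epithelial genes. The smooth muscle genes summed to 1192 FPKM in OLG 4 and 486.1 in OLG 3, the highest and lowest OLG libraries for Ano1. The part of smooth muscle in the Ano1 values was not tested. Cftr was at 2.48, 2.61, 3.53 and 1.56 FPKM, overlapping OL, with a log2 difference of -0.20 (SE 0.18, adjusted p = 0.448).

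Against PBS, none of the 8 members passed in OVA/LPS/GGsTop, where 2.88% of all genes tested did. Scnn1b, Scnn1g and Slc26a4 had an unadjusted p under 0.05 by limma, as did 2873 of the 14004 genes tested. This comparison shares a group with each of the others. The Scnn1a difference was -0.01 (SE 0.16, adjusted p = 0.977) on the log2 scale, and its sign turned in some other settings. Scnn1b differed by -0.68 (SE 0.27, adjusted p = 0.181) and Scnn1g by -0.71 (SE 0.27, adjusted p = 0.166), and without PBS 2, the lowest PBS library, both passed, at -1.01 (adjusted p = 0.0218) and -0.96 (adjusted p = 0.0436). Without PBS 3, the highest, they were -0.41 and -0.47.

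Slc26a4 lay higher in every OLG library than in any PBS library, with a log2 difference of 1.71 (SE 0.46, adjusted p = 0.0689) and a ratio of means of 4.81. Without OLG 3 it passed, at 2.09 (adjusted p = 0.0160). Slc26a9 differed by -0.61 (adjusted p = 0.262), Slc12a2 by 0.32 (adjusted p = 0.331), Ano1 by 0.12 (adjusted p = 0.761) and Cftr by -0.03 (adjusted p = 0.936), and all 4 overlapped PBS.

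The ratios between the 3 subunits of the channel varied from library to library. The ratio of Scnn1a to Scnn1g was 1.07, 1.31 and 1.12 in PBS, 1.61, 1.45, 1.20 and 1.41 in OL, and 1.76, 1.82, 1.46 and 2.90 in OLG. Every OLG library lay above every PBS library, and OL lay between with overlap on both sides. The ratio of Scnn1a to Scnn1b ran from 1.16 to 1.68 in PBS, 1.58 to 2.14 in OL and 1.71 to 2.83 in OLG, whereas Scnn1b to Scnn1g ran only from 0.749 to 1.03 over all 11 libraries. These ratios were chosen after the values had been seen. They were not corrected for GC content, which was 56.7% for Scnn1a, 55.2% for Scnn1b and 49.8% for Scnn1g. They were compared between groups by 9 two-sided exact permutation tests. The smallest p by these exact tests was 0.0571 (0.147 adjusted over the 9 tests). Comparisons of 3 libraries against 4 allow none smaller than 0.0571, and 4 against 4 none smaller than 0.0286. With these limits no adjusted value over the 9 tests could pass the threshold used for calls, whatever the ratios. The tests therefore cannot decide whether the ratios differed between groups.

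**Figure D3:**
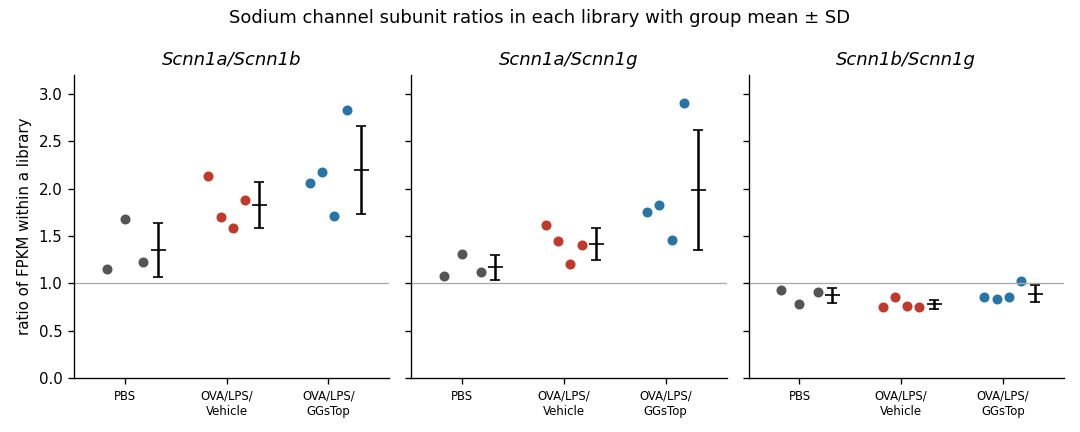
Ratio of FPKM of 2 sodium channel subunits within each library (y axis) by group, with group mean and SD and a line at a ratio of 1. Scnn1a/Scnn1g in OVA/LPS/GGsTop, at 1.46 to 2.90, lies above the PBS range of 1.07 to 1.31, while Scnn1b/Scnn1g stays between 0.749 and 1.03.

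Over the 11 libraries Scnn1b and Scnn1g moved most alike of all pairs of members, with r = 0.98 on the log2 scale, and Slc26a9 followed both, at r = 0.97 with Scnn1g and 0.96 with Scnn1b. Scnn1a was less close, at 0.83 with Scnn1b and 0.75 with Scnn1g. These correlations describe libraries that fall into groups and share depth and tissue makeup. The ENaC subunits are also expressed in the alveolus, and the 9 alveolar epithelium genes summed to 10428 to 16700 FPKM in PBS, 5446 to 8948 in OL and 4804 to 12238 in OLG. In OL against PBS 3 of the 9 were called lower and none higher by limma. Over all genes tested 38.0% were called, with 3096 of the 14004 lower. The mean log2 level of the alveolar genes correlated at r = 0.91 with Slc26a9, 0.90 with Scnn1g and 0.84 with Scnn1b, and at 0.57 with Scnn1a. Other marker lists correlated about as closely with the opposite sign. Slc26a9 was at -0.91 with the basal cell genes, and Scnn1g at -0.89 and Scnn1b at -0.86 with the goblet cell genes. Scnn1a was closest to the submucosal gland genes, at -0.84. OLG 4 had the lowest alveolar sum of all libraries and PBS 3 the highest, the same libraries that were lowest and highest for Scnn1g and Slc26a9. The part of alveolar tissue in these differences was not tested.

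**Figure D4:**
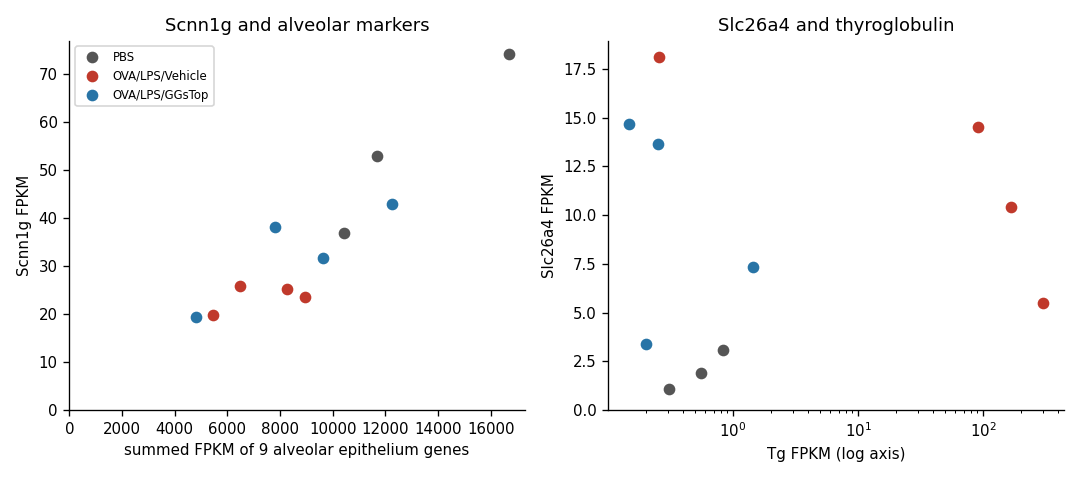
Left, FPKM of Scnn1g against the summed FPKM of 9 alveolar epithelium genes, and right, FPKM of Slc26a4 against FPKM of thyroglobulin (Tg, log axis), 1 point per library coloured by group. Scnn1g is highest in the PBS library with the highest alveolar sum, 16700 FPKM, and Slc26a4 is highest, at 18.1 FPKM, in the OVA/LPS/Vehicle library with 0.256 FPKM of Tg.

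Among all genes tested, the pattern of Scnn1a over the 11 libraries was most like that of Plxnb1 (r = 0.98), Tmem63a (0.98) and Preb (0.98). Scnn1b was nearest to Tbx4 (0.99), Pdlim2 (0.99) and Itga3 (0.99), and Scnn1g to Mapk3 (0.99), Chst8 (0.99) and Eva1b (0.99). Tbx4, a transcription factor of lung mesenchyme, had means of 38.9 FPKM in PBS, 16.99 in OL and 23.6 in OLG. Slc26a4 was nearest to Ccl9 (0.97), a chemokine, Chia1 (0.96), an acidic chitinase, and Fcgr2b (0.96), an inhibitory Fc receptor. The closest genes were Hip1 (0.99), Tnfaip1 (0.99) and Mcam (0.98) for Slc26a9, and Adss (0.99), Tc2n (0.99) and Fam84b (0.97) for Slc12a2. For Ano1 they were Ror2 (0.97), Slc12a7 (0.95) and Taf6 (0.94), and for Cftr they included Ppic (0.89) and Lamp3 (0.87). They were picked as the highest values over 14004 genes in 11 libraries that fall into 3 groups.

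Foxi1 and Atp12a were at or near 0 throughout. Foxi1 had 1 fragment in each of OL 34, OL 78, OLG 2 and OLG 4 and 0 in the others, and 3 fragments, the floor used here, would be 0.0683 to 0.0877 FPKM. Atp12a had 2 fragments in OL 34, 3 in OL 78, 1 in OLG 3 and 0 in the others, with a floor of 0.0401 to 0.0515 FPKM. No difference was detectable at this depth, and no fold is given. The floor covers counting error only. Of 9 other genes of ionocytes, 4 were high enough to test, and only Dmrt2, a transcription factor, passed in OL against PBS, at 0.92 (SE 0.29, adjusted p = 0.0292), which was lost with any of 5 single libraries left out. Ascl3, another ionocyte transcription factor named here after its values were seen, had 1 to 12 fragments per library. Cftr had 179 to 519 fragments per library, so it was read in libraries with hardly any Foxi1.

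A list of 102 further genes of the pathway, sorted into 10 roles, gives the setting of these members, and 83 of them were high enough to test. In OL against PBS 11 rose and 12 fell, 23 of 83 against 38.0% of all genes. After removal of the GC dependence 13 rose and 8 fell, and at equal epithelial levels 4 rose and 10 fell. The median log2 change was -0.01, like that of all genes. Of 14 chloride channels and exchangers tested 3 rose and 4 fell, and the calcium-activated chloride channel regulator Clca1, a secreted goblet cell product, rose from 0.310 to 853.2 FPKM, by 9.23 on the log2 scale (SE 0.83, adjusted p = 5.0e-04 by limma). Of the 4 aquaporins 2 fell and 1 rose. Aqp5, the apical water channel, fell by 1.32 (SE 0.23, adjusted p = 0.00409) from 91.6 to 35.6 FPKM, and Aqp1, the water channel of endothelium, fell by 0.89 (SE 0.23, adjusted p = 0.0144). Aqp4, a basolateral water channel, rose by 1.58 (SE 0.43, adjusted p = 0.0168) from 3.76 to 11.4 FPKM.

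Of the 16 genes that process, inhibit or recycle ENaC, 1 rose and 1 fell. Furin, the protease that cleaves the α and γ subunits on the way to the surface, fell by 0.75 (SE 0.14, adjusted p = 0.00431), from 16.5 to 9.27 FPKM. Tsc22d3, the glucocorticoid-induced leucine zipper that holds ENaC at the membrane, rose by 1.29 (SE 0.25, adjusted p = 0.00525), from 28.2 to 72.4 FPKM, while the subunits themselves fell. Of 10 genes of the sodium pump and basolateral potassium channels that were tested 3 rose and 1 fell, among them Kcne3, the KCNQ1 partner that supports chloride secretion, at 1.66 (SE 0.44, adjusted p = 0.0145), and the pump subunit Atp1b1 at 0.52 (SE 0.13, adjusted p = 0.0140). Of 7 genes of the cotransporter kinase group 2 fell and 1 rose. The kinase Stk39, which activates NKCC1, rose by 0.97 (SE 0.30, adjusted p = 0.0286), Slc12a4, a potassium-chloride cotransporter, fell by 0.93 (SE 0.16, adjusted p = 0.00377) and the kinase Wnk4 by 0.52 (SE 0.11, adjusted p = 0.00807). The syntaxin Stx1a, which binds both CFTR and ENaC, fell by 0.58 (SE 0.14, adjusted p = 0.00963), the adenylyl cyclase Adcy4 by 0.92 (SE 0.26, adjusted p = 0.0194), and the proton pump subunit Atp6v1b1 rose by 0.9998 (SE 0.34, adjusted p = 0.0402). After removal of the GC dependence Stx1a, Aqp1, Wnk4 and Adcy4 no longer passed, nor did Aqp4 (adjusted p = 0.0639), and at equal epithelial levels Atp1b1, Atp6v1b1 and Stk39 (0.0539) did not. Atp6v1b1 was also lost with any of 6 single libraries left out, Adcy4 without PBS 1 (adjusted p = 0.0562) or PBS 3 (0.0933), Kcne3 without PBS 3 (0.0721), Aqp4 without PBS 1 (0.0556) or PBS 3 (0.0851), and Stk39 with any of 5 single libraries left out (adjusted p up to 0.128).

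In OLG against OL 8.71% of all 14004 genes tested passed, 966 of them higher and 254 lower. Of the 83 pathway genes 11 rose and 0 fell. They included Wnk4 at 0.70 (SE 0.11, adjusted p = 0.0126), Stx1a at 0.81 (SE 0.13, adjusted p = 0.0141), Clcn2, a chloride channel, at 0.52 (SE 0.10, adjusted p = 0.0219), Furin at 0.56 (SE 0.13, adjusted p = 0.0284), and Slc12a4 at 0.59 (SE 0.14, adjusted p = 0.0348). The basolateral potassium channel Kcnq1 rose by 0.51 (SE 0.13, adjusted p = 0.0399), the adenylyl cyclase Adcy6 by 0.55, and P2ry2, the nucleotide receptor that triggers calcium-activated chloride secretion, by 0.61 (SE 0.16, adjusted p = 0.0430). None of the 11 passed after removal of the GC dependence or at equal epithelial levels, and 0 to 7 pathway genes passed with single libraries left out. Over the 8 fits with a library left out, Wnk4 passed in 7, Stx1a in 5, Clcn2 in 3 and Furin in 2. Slc12a4 and Adcy6 passed in 1 each, and Kcnq1 and P2ry2 in 0. Aqp5 differed by 0.54 (adjusted p = 0.120).

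In OLG against PBS 2 of the 83 passed and both rose, against 2.88% of all genes, 288 higher and 115 lower. Clca1 was at 589, 714, 67.0 and 1557 FPKM in OLG libraries 1 to 4, against 0, 0.376 and 0.554 in PBS, with a log2 change of 8.48 (SE 0.83, adjusted p = 8.7e-04). OLG 3, with the least Clca1, was the library with the least Slc26a4 in the group. Tsc22d3 was at 90.4 FPKM on average, 1.65 above PBS on the log2 scale (SE 0.25, adjusted p = 0.0128), and it missed the threshold without PBS 1 (adjusted p = 0.0691), PBS 3 (0.0586) or OLG 1 (0.0516).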

How the data were processed

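Poly-A RNA was sequenced in 11 libraries: 3 labelled PBS, 4 labelled OL and 4 labelled OLG. The authors deposited FPKM per Ensembl gene, and the submitters' processing notes name cutadapt 1.15, HISAT2 2.0.5, HTSeq 0.9.1 and mm39. The study tested counts, which are not used here. With GENCODE M21 exon lengths (GRCm38), 97.6% of the 21899 genes gave whole fragments in all libraries within 0.05 fragment, and 21795 identifiers matched. Ano1 did not, so it has no fragment count.

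The 14004 genes whose mean reached 0.5 FPKM, 8 of the 10 members among them, were fitted as log2(FPKM + 1) with limma 3.58.1 in R 4.3.3 (eBayes with trend, all 11 libraries, two-sided, Benjamini-Hochberg over all genes tested, called at an adjusted p under 0.05). FPKM are shares of a library, so a large change in abundant genes moves the rest. The script was tested on simulated data. Alternatives were a pseudocount of 0.1, no filter, equal medians, removal of a per-library spline on GC content (5 degrees of freedom), voom on recovered fragments, the 2 groups compared alone, each library left out in turn, and, chosen after seeing the data, equal means of 12 epithelial genes.

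PBS and OLG libraries share the numbers 1 to 3. Deviations from the group means of same-numbered libraries correlated at 0.37, 0.43 and 0.43, which passes the rule used for pairing, from the data and not from the labels. PBS 1 correlated more with OLG 3 (0.46) and PBS 2 with OLG 4 (0.64). With the replicate block 95 genes were called in OLG against PBS, in place of 403, and none of the members.

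Named are all members, up to 2 genes of smallest p per role and comparison where called, leading marker genes and the 3 closest genes of each member, apart from 2 genes that are not reported here. Members, lists and motifs were chosen with earlier results of these data known.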

Additional observations from a re-analysis of the deposited data

How the results depend on the processing

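Between OL and PBS, 6 members were called in each setting that kept all libraries of the comparison except at equal epithelial levels, where Slc12a2 was lost. There 14 pathway genes (23 in the report) and 2232 of all genes (5327) passed, and 2904 genes passed after GC removal. With single libraries left out 5 to 6 members, 14 to 36 pathway genes (15 without PBS 1, 36 without PBS 2, 14 without PBS 3) and 3064 (without PBS 3) to 6440 of all genes passed. Between OLG and OL, 1 member, 11 pathway genes and 1220 of all genes became 0, 0 and 56 after GC removal, and 0, 0 and 21 at equal epithelial levels. Equal medians gave 4 pathway genes and 698 of all genes, and the 2 groups alone gave 3 members and 3525 of all genes. With single libraries left out 0 (without OL 56, OLG 1 or OLG 3) to 1 members, 0 (without OL 56) to 7 (without OLG 4) pathway genes and 24 (without OLG 1) to 1052 of all genes passed, and each library left out lowered the pathway count by over 1.5 times. Between OLG and PBS, 403 genes became 208 without a filter, 39 in the 2 groups alone, 112 at equal epithelial levels and 95 with the replicate block, and GC removal gave 4 pathway genes in place of 2. With single libraries left out 0 to 2 members (2 without PBS 2, 1 without OLG 3), 1 (without PBS 1, PBS 3 or OLG 1) to 15 (without PBS 2; 8 without OLG 3) pathway genes and 29 (without PBS 1) to 1597 (without PBS 2) of all genes passed. Uncalled log2 differences that changed sign were Cftr between OL and PBS (-0.29 after GC removal, -0.0457 at equal epithelial levels) and between OLG and OL (0.0858 after GC removal). Between OLG and PBS, Cftr was 0.11 with the replicate block, Scnn1a was 0.0526 after GC removal, 0.0261 with the replicate block and 0.10 with the block and GC removal, and Ano1 was -0.17 at equal epithelial levels, -0.0528 with the block and -0.0416 with the block and GC removal. With single libraries left out, Slc26a4 ran from -0.65 to 0.0306 between OLG and OL, and Cftr from -0.16 to 0.11, Scnn1a from -0.17 to 0.21 and Ano1 from -0.0528 to 0.29 between OLG and PBS. The replicate block changed no other call of a member. The cause of these changes was not tested. The depth limits Foxi1 and Atp12a, at 0 to 3 fragments a library.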

Other observations

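Genes of other cell types were also compared between the groups. In OL against PBS 9 of 10 ciliated cell genes, 4 of 8 submucosal gland genes tested, 3 of 8 striated muscle genes tested and 2 of 7 club cell genes rose, with 0 lower in each list, while 3 of 12 epithelial genes rose and 1 fell. Of the parathyroid genes both that were tested rose, and Pth was at 5.997, 91.8 and 223.5 FPKM in OL 12, 34 and 56 and at 0 in OL 78. Basal cell, cartilage, fat and leukocyte lists held no called gene in this comparison, and 1 of 7 smooth muscle genes fell. In OLG against OL 1 thyroid gene and 1 gland gene fell and 1 club cell gene rose. In OLG against PBS 5 of 8 goblet cell genes and 6 of 10 ciliated cell genes rose. These counts are by the same limma test, against 38.0%, 8.71% and 2.88% of all genes. In OL against PBS the striated muscle, club cell, epithelial and smooth muscle counts did not exceed the 38.0% share. The striated muscle genes also varied within PBS, with sums of 9.73 to 561.5 FPKM.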
